A study of Mus musculus with 3 samples.

Results

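The genes of the mouse major histocompatibility complex (MHC, called H2 in the mouse) and the genes that serve its molecules were followed in 3 segments of the embryonic gut. They were chosen by name, as every feature of the deposited table whose gene name begins with H2-, together with B2m, Tap1, Tap2, Tapbp, Cd74, Ciita and Nlrc5, and they came to 47 of 33762 features. The set holds 2 classical class I genes, 25 non-classical class I features, 5 features of the class I pathway, 10 class II features, 3 of the class II pathway and 2 genes that carry an H2 name only because they lie in the region. The tissues were caecum, colon and presumptive ileum of E13.5 embryos of wild type genotype and strain Bl6/C57, with 1 library of polyadenylated RNA each. The ileum was the last of 3 equal portions of the small intestine, and the labels do not say how many embryos went into a sample.

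With 1 library per segment no difference has a replicate check and no p-value is given. A value called a count is the mean of the 2 count columns that the table gives per segment, rounded to a whole number, and RPKM is the authors' value per gene length and sequencing depth. Unless said otherwise, 3 values in a row follow the gut downward, from ileum through caecum to colon. A fold is a ratio of counts scaled by TMM, which sets library sizes so that most genes do not differ, and brackets give its 95% interval, which covers counting error only. A gene is called apart at a fold of 2 or more, provided that its higher library holds 20 counts or more. The libraries held 50079617, 64439701 and 50772855 counts. Hoxd13, a homeobox gene of the hindgut end, had 1, 13 and 2354 counts, and Gata4, a factor of the proximal intestine, had 702, 4 and 58, so these markers followed the labels of the end segments. In bulk tissue, fewer cells of a type and less RNA per cell cannot be told apart.

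Class I molecules consist of a heavy chain encoded in the MHC and the light chain beta-2 microglobulin, and they show peptides from inside the cell to CD8 T cells. Classical class I genes are made by nearly all cell types of the adult, while the non-classical ones are more restricted and often bind other receptors or ligands. Class II molecules are pairs of an alpha and a beta chain made mainly by antigen-presenting cells such as dendritic cells, B cells and activated macrophages, and they show peptides taken up from outside. In the adult intestine the epithelium makes class I molecules, among them the thymus leukemia antigen, the product of H2-T3, which binds CD8 alpha homodimers on intraepithelial lymphocytes.

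Sequences upstream of the start sites are shown because the members fell into genes at like levels in all 3 segments (H2-K1, H2-D1, B2m) and genes mostly counted in the ileum (H2-Q2, H2-T3). Each is the 250 bases before the gene's start, read 5′ to 3′ on the gene's strand, from RefSeq on GRCm38.p6. Capitals mark the letters of 4 motifs known from MHC promoters, searched on both strands. They are the interferon-stimulated response element (ISRE), enhancer A, which binds NF-kB and is the first run of capitals in the H2-K1 and H2-D1 windows, the Y box (ATTGG) and the core of the X2 box (TGACG). The windows lie at chr17:34000348-34000597 on the minus strand for H2-K1, chr17:35262844-35263093 on the plus strand for H2-D1, chr2:122147437-122147686 on the plus strand for B2m, chr17:35342057-35342306 on the plus strand for H2-Q2 and chr17:36190152-36190401 on the minus strand for H2-T3.
H2-K1: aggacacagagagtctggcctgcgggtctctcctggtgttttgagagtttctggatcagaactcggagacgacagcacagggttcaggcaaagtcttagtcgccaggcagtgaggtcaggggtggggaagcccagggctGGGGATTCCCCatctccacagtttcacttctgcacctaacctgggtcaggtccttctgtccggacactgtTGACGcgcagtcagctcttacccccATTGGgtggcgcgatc
H2-D1: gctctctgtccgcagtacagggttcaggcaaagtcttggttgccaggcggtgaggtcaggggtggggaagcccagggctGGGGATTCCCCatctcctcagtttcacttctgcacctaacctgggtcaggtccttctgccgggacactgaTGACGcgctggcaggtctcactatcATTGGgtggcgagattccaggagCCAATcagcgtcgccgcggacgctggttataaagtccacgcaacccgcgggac
B2m: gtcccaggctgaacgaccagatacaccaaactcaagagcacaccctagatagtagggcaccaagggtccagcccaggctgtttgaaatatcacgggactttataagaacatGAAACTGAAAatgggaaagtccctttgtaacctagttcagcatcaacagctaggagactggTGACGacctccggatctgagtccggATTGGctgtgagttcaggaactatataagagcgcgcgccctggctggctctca
H2-Q2: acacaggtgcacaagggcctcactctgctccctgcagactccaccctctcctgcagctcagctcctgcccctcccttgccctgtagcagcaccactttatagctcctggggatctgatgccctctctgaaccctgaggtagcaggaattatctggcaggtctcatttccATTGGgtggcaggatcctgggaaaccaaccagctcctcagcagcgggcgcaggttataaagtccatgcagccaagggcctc
H2-T3: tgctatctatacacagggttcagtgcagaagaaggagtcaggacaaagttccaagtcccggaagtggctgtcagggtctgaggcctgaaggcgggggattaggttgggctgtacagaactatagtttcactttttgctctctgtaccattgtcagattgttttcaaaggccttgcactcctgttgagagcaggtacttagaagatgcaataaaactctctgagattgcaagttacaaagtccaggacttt

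The H2-K1 and H2-D1 windows each held enhancer A, an X2 core and a Y box in the same order. Enhancer A was found in 10 of 32851 promoters of the table (0.0304%), and 4 of those belonged to class I members, to H2-K1 at both of its start sites, to H2-D1 and to H2-Q6. The Y box was found in 22 of 25 class I promoters and 8 of 9 class II promoters, against 33.8% of all promoters, and the X2 core in 12 of 25 and 1 of 9, against 17.8%. These numbers hold both start sites of H2-K1, H2-M9 and H2-DMa, and promoters of related genes are not independent. Either strand counted, and in some class I promoters, such as those of H2-T23 and H2-M10.2, the Y box was only on the opposite strand. In H2-K1, H2-D1 and B2m the first base of the Y box lay 25 bases after that of the X2 core. A spacing of 24 to 26 bases on 1 strand, chosen after these windows had been read, was found in 62 of all promoters (0.189%), among them those of H2-K1, H2-D1, B2m, H2-Q7, H2-M3 and H2-Aa. The ISRE was found upstream of B2m, H2-T23, H2-T22 and the feature listed as H2-T9, and in 2.98% of all promoters. H2-Q2 held 1 Y box and none of the other motifs, and H2-T3, H2-Q10 and H2-M5 held none of the 4. Enhancer A and the spacing did not follow the grouping of the windows shown. H2-Q6 and H2-Q7, both highest in the ileum, held enhancer A and the spacing, respectively. H2-Q4 and H2-T22, within 2-fold in every comparison, held neither. Sequences were matched for 34 of 44 member symbols, and a match is a description of letters, not a site of binding. Sites that depart from the letters searched were not marked, so a window without a match may still hold such a site. The stretch tttcacttct after enhancer A in H2-K1 and H2-D1 departs from the ISRE letters and was not marked. The same holds for tttcactttt in H2-T3.

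The classical class I genes were present at like levels in all 3 segments. H2-K1 (ENSMUSG00000061232, mm9 chromosome 17, 34132962 to 34137278), which encodes the K heavy chain, had 720, 764 and 576 counts, or 5.51, 4.54 and 4.35 RPKM. H2-D1 (ENSMUSG00000073411, mm9 chromosome 17, 35399675 to 35404444), which encodes the D heavy chain, had 320, 352 and 278 counts, or 2.47, 2.11 and 2.12 RPKM. Both were slightly higher in the ileum library than in the other segments. For H2-K1 the ileum stood at 1.23 times the caecum (1.11 to 1.36) and 1.29 times the colon (1.15 to 1.44). For H2-D1 both ratios were 1.18 (1.01 to 1.38 and 1.01 to 1.40).

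The lead of the ileum in these genes was close in size to the difference between the 2 columns of 1 segment. In the colon, H2-K1 had 625 counts in one column and 526 in the other, a squared difference 8.52 times the counting variance, and only 0.391% of features in the colon differed as much between columns. In log2, colon over ileum for H2-K1 was -0.28 from the first columns and -0.46 from the second. H2-T23 in the caecum, with 230 and 176 counts, was the other member that differed so, at 7.18 times the counting variance. Over all features the mean of this ratio was 0.461, 0.458 and 0.454 in the ileum, caecum and colon. The headers call the columns rep.1 and rep.2, but both belong to 1 sample, and what they are is not given in the sources used here. They were not treated as replicates, and the intervals do not hold this difference.

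**Figure D1:**
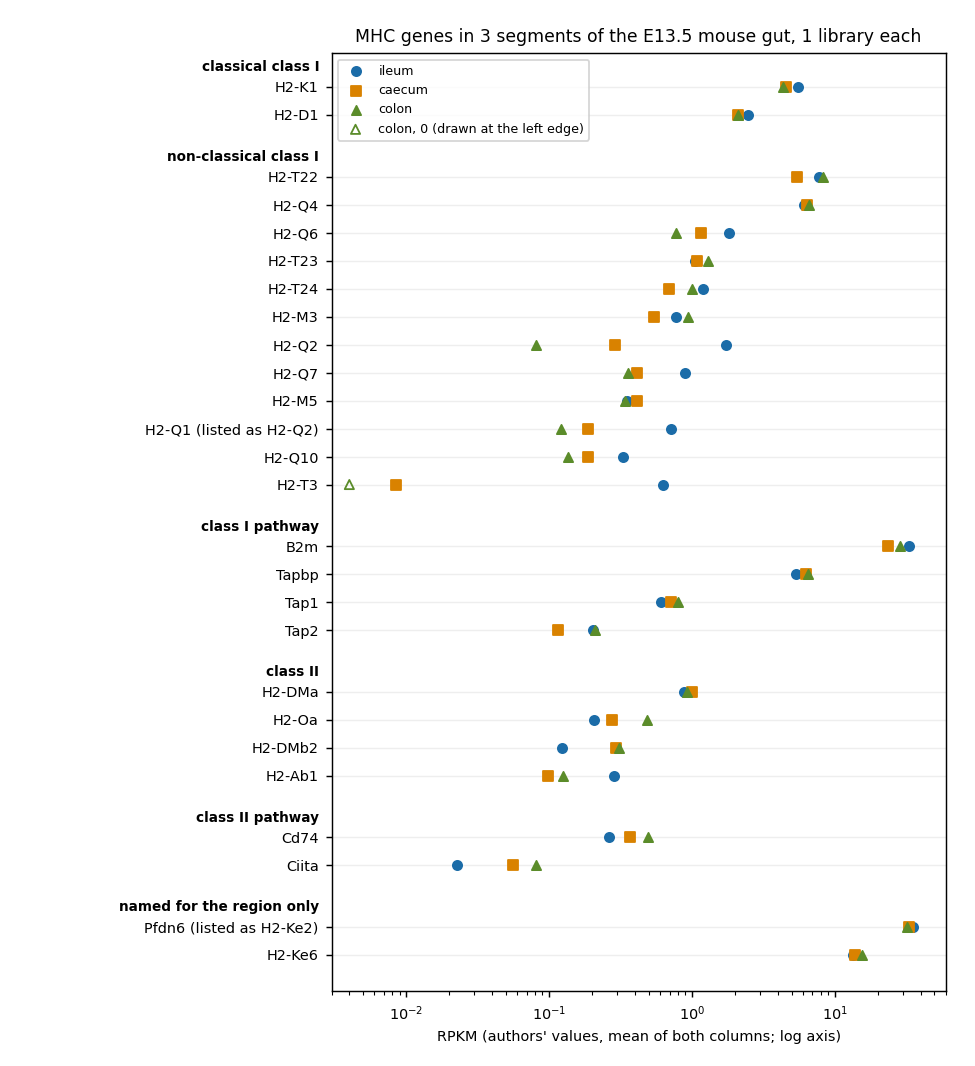
RPKM (authors' values, mean of both columns, log axis) of the 26 members with at least 20 counts in a library, by class, with 1 point per library. B2m and the H2-K1, H2-T22 and H2-Q4 heavy chains lie at like levels in all 3 libraries, whereas H2-T3 runs from 0.633 RPKM in the ileum to 0 in the colon, drawn open at the left edge.

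Of the 25 non-classical class I features, 12 reached 20 counts in a library and 13 did not. The most abundant were H2-T22 and H2-Q4, and with H2-K1 they made up 60.5% of the summed class I RPKM in the ileum, 68.4% in the caecum and 71.5% in the colon. H2-T22 (mm9 chromosome 17, 36174073 to 36179692), a ligand of some gamma-delta T cell receptors, had 1326, 1200 and 1432 counts, or 7.75, 5.45 and 8.26 RPKM. It was lowest in the caecum, by 1.44-fold (1.33 to 1.56) against the ileum and 1.51-fold (1.40 to 1.63) against the colon. H2-Q4 (mm9 chromosome 17, 35516562 to 35522235) had 810, 1096 and 899 counts, or 6.06, 6.37 and 6.63 RPKM. Its 3 libraries did not differ beyond counting error, at 1.04-fold (0.949 to 1.14) for caecum over ileum and 1.08-fold (0.980 to 1.19) for colon over ileum.

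Of the 3 libraries, H2-T3 was counted above the floor only in the ileum. H2-T3 (ENSMUSG00000054128, mm9 chromosome 17, 36322517 to 36327232, minus strand) had 91 and 82 counts in the ileum columns, 3 and 0 in the caecum columns and 0 in both colon columns. Its mean levels were 0.633, 0.00852 and 0 RPKM, so that even in the ileum its RPKM lay below that of H2-K1. The ileum stood at 55.9 times the caecum (15.0 to 469), and it was at least 29.5-fold higher than the colon, taking the count of 0 as a floor of 3 counts. No fold is given between caecum and colon, where both counts lie at or under that floor. H2-T3 shared no stretch of 100 bases with a transcript of another gene, even with 2 mismatches allowed.

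The 5 Q genes compared besides H2-Q4 had falling counts from ileum to caecum to colon. The feature ENSMUSG00000091705, H2-Q2 (mm9 chromosome 17, 35479187 to 35483707), had 188, 41 and 9 counts, or 1.73, 0.292 and 0.0813 RPKM. Its neighbour ENSMUSG00000079507 (mm9 chromosome 17, 35457350 to 35462044), which the table also lists as H2-Q2 and which is now named H2-Q1, had 102, 34 and 18 counts, or 0.716, 0.187 and 0.121 RPKM. Both were highest in the ileum and lowest in the colon. For H2-Q2 the ileum stood at 5.96 times the caecum (4.24 to 8.58) and 21.5 times the colon (11.1 to 47.7), and the caecum at 3.60 times the colon (1.73 to 8.43). For H2-Q1 the ileum stood at 3.90 times the caecum (2.62 to 5.93) and 5.83 times the colon (3.51 to 10.2), while caecum over colon, at 1.49 (0.821 to 2.81), was within counting error.

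H2-Q6 and H2-Q7, which encode the Qa-2 antigen, and H2-Q10, whose product is secreted and known from the liver, had the same order at smaller folds. H2-Q6 (mm9 chromosome 17, 35561795 to 35567000) had 198, 163 and 86 counts, and its ileum value was 1.58 times the caecum (1.28 to 1.96) and 2.37 times the colon (1.83 to 3.09). H2-Q7 (mm9 chromosome 17, 35576100 to 35580714) had 190, 114 and 78 counts, with folds of 2.17 (1.71 to 2.76) and 2.51 (1.92 to 3.31). H2-Q10 (mm9 chromosome 17, 35607034 to 35611508) had 72, 52 and 30 counts, with folds of 1.80 (1.24 to 2.62) and 2.47 (1.59 to 3.92). In each of these genes the caecum stood between the other segments, and its difference from the colon was beyond counting error only for H2-Q6, at 1.5-fold (1.15 to 1.97), and not for H2-Q7 and H2-Q10. Read from the second columns alone, H2-Q7 fell just short of 2-fold between ileum and caecum, at -0.98 for caecum over ileum in log2 against -1.12 from the mean. The 5 genes H2-Q1, H2-Q2, H2-Q6, H2-Q7 and H2-Q10 together took 17.2%, 9.38% and 5.47% of the summed class I RPKM. They lie in tandem with H2-Q4 between 35457350 and 35611508, and H2-Q4, in their midst, did not follow them. They were grouped here after their values had been seen.

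These genes are related in sequence and are not independent measurements. Of the windows of 100 bases in the transcripts of H2-Q6, 10.8% occurred letter for letter in a transcript of another gene, most often H2-Q7, and 41.9% with up to 2 mismatches. The shares were 12.0% and 28.7% for H2-Q7, 8.01% and 20.7% for H2-Q10, 5.09% and 18.6% for H2-Q2, 8.05% and 16.2% for H2-Q1, and 2.16% and 27.8% for H2-Q4. H2-T22 shared 8.86% letter for letter, mostly with H2-T10, and 54.4% with mismatches. H2-K1 and H2-D1 shared 0.957% and 3.59% letter for letter. How the authors treated reads that fit several genes is not given in the sources used here, and its part in the folds of these genes was not tested. H2-Q2 and H2-Q1 shared windows with each other, so their values are not independent of each other.

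**Figure D2:**
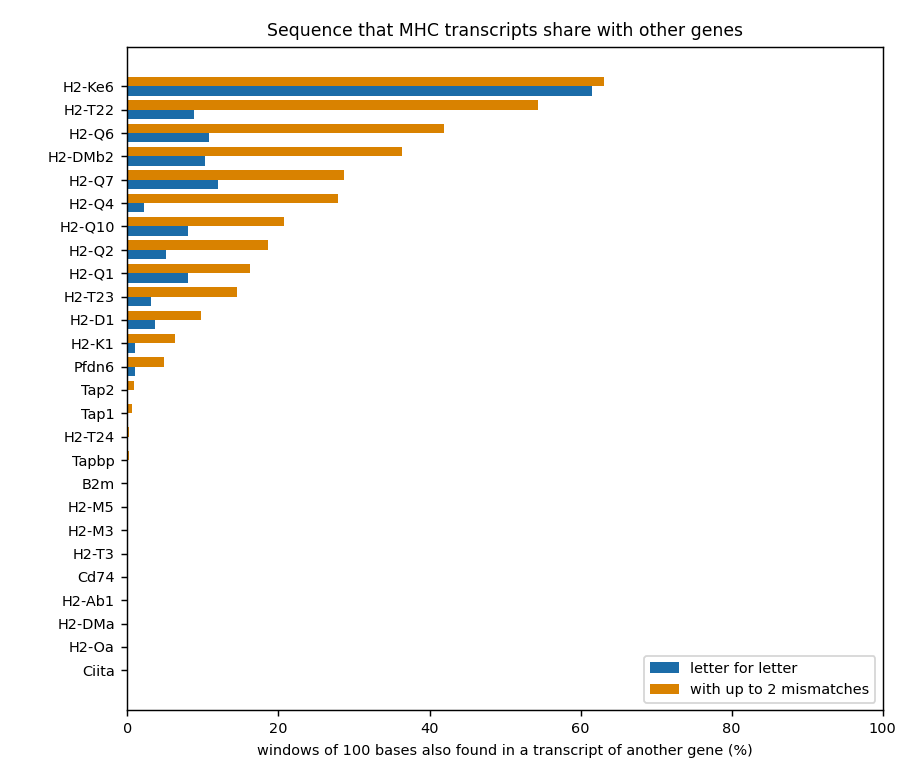
Share (%) of the 100-base windows of each member's transcripts (GENCODE vM21) that also occur in a transcript of another gene, letter for letter and with up to 2 mismatches. H2-T22 and H2-Q6 share 54.4% and 41.9% of windows with mismatches allowed, while H2-T3, B2m and H2-M3 share none.

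The remaining non-classical genes stayed within 2-fold in every comparison. H2-T23, which encodes Qa-1, the ligand of NKG2 receptors, had 152, 203 and 190 counts, with intervals that held 1 in every comparison. H2-T24 had 132, 98 and 112 counts and its ileum value was 1.75 times the caecum (1.34 to 2.30). H2-M3, which presents peptides that begin with formyl-methionine, had 56, 50 and 69 counts and its colon value was 1.74 times the caecum (1.19 to 2.56). H2-T24, H2-M3 and H2-T22 were each lowest in the caecum, but for H2-M3 ileum over caecum, at 1.46 (0.977 to 2.18), was within counting error. H2-M5 had 46, 70 and 45 counts, and its intervals held 1 in every comparison.

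The 13 sparse non-classical features had 17 counts at most. H2-K2, a pseudogene in the GENCODE annotation, had 17, 5 and 8 counts. The H2-M10 genes, known from sensory neurons of the vomeronasal organ, were near 0, with H2-M10.2 at 8, 8 and 10 counts and the others at 2 or fewer. H2-M1, H2-M9, H2-M11 and H2-M10.4 had no counts at all. The feature listed as H2-T9, now named Gm7030, had 7, 14 and 7 counts, the same as an overlapping feature on its strand, and 78.6% of its windows matched another gene with up to 2 mismatches.

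Among 26 members compared between caecum and ileum, 5 were lower by 2-fold or more in the caecum, against 2.52% of all 17827 features compared, and 2 were higher, against 4.59%. The 5 were H2-Q1, H2-Q2, H2-Q7, H2-T3 and the class II gene H2-Ab1. Between colon and ileum, 7 of 26 were lower by 2-fold or more in the colon, against 4.29% of all features, and 3 were higher, against 4.04%. The 7 were the same 5 genes with H2-Q6 and H2-Q10. Between caecum and colon, 1 of 24 members, H2-Q2, was higher by 2-fold or more in the caecum, against 5.11% of all features, and 0 were lower, against 2.74%. Some members passed the minimum through their high library alone, among them H2-T3, H2-Ab1, Ciita and H2-DMb2, and such a passage favours a difference. These counts therefore describe the 26 or 24 members and not all 47. The median log2 fold of the 12 non-classical features was -0.73 for caecum over ileum and -0.76 for colon over ileum, against 0.01 and -0.0042 over all features compared. For the 11 compared between caecum and colon it was 0.21, against 0.01.

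**Figure D3:**
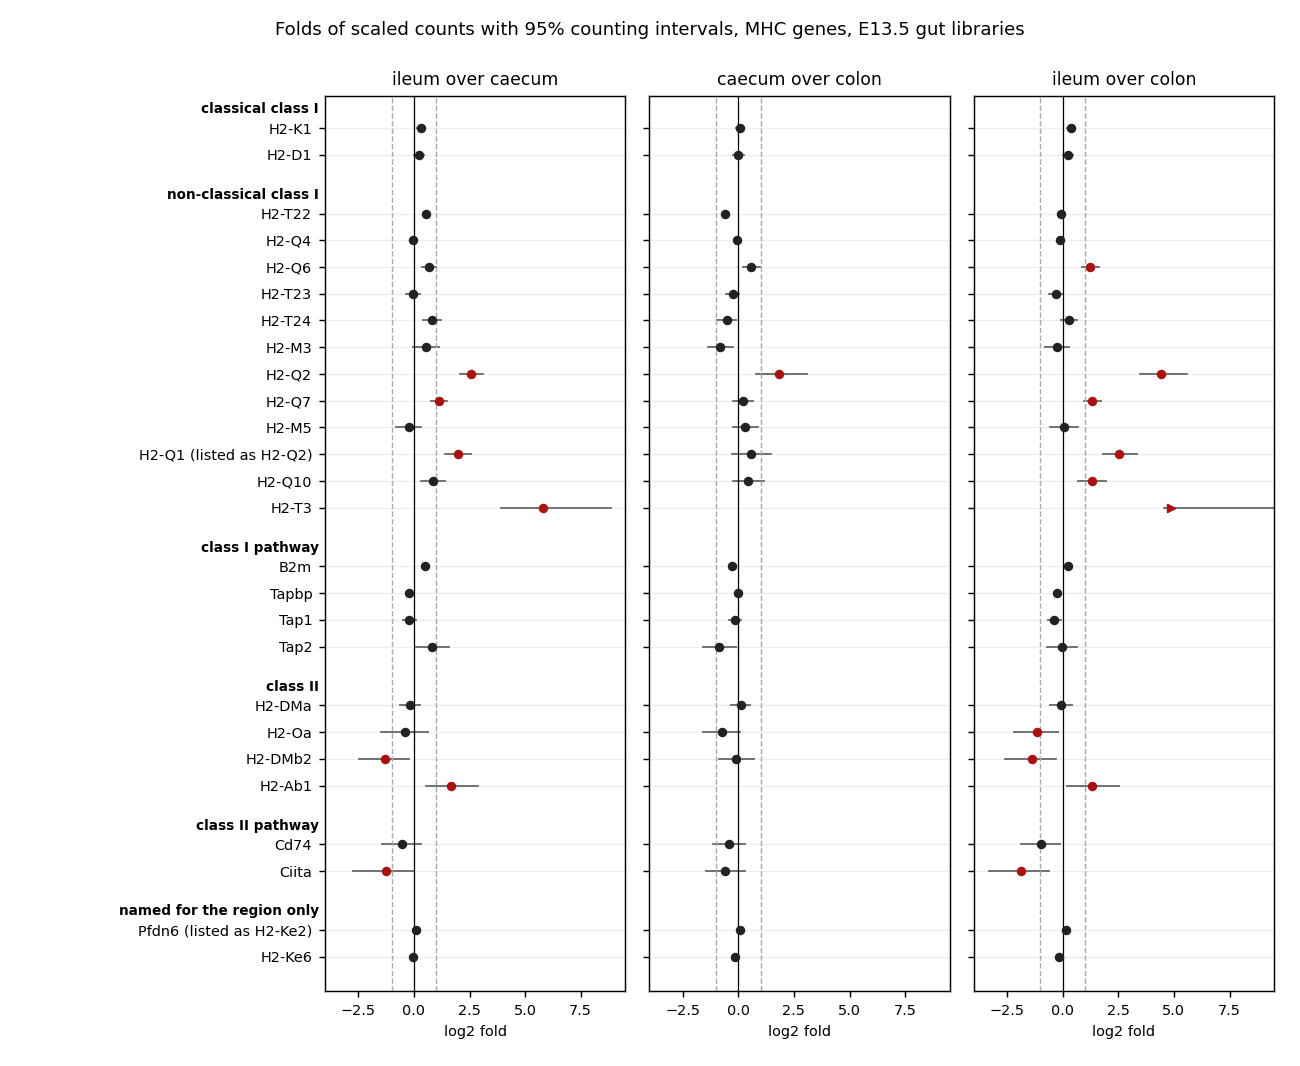
Log2 folds of scaled counts between the libraries for the 26 members, with 95% counting intervals as lines, red points at 2-fold or more, dashed lines at 2-fold, and an arrowhead where the lower library had 0 counts. H2-T3, H2-Q2 and H2-Q1 are the members whose intervals lie wholly beyond 2-fold, in ileum over caecum and in ileum over colon.

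The light chain and the peptide-loading genes were present in all 3 segments and within 2-fold. B2m (ENSMUSG00000060802, mm9 chromosome 2, 121973422 to 121978819), the beta-2 microglobulin gene, had 1430, 1306 and 1246 counts, or 33.2, 23.6 and 28.5 RPKM. It was lowest in the caecum per scaled count, by 1.42-fold (1.32 to 1.54) against the ileum and 1.21-fold (1.12 to 1.30) against the colon. The summed RPKM of all class I heavy chain features was 32.0, 23.9 and 26.9, or 0.962, 1.02 and 0.944 times the RPKM of B2m. The class I sum and B2m had the same order of segments.

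Tapbp, which encodes tapasin, the bridge between class I and the peptide transporter, had 885, 1346 and 1088 counts, or 5.36, 6.33 and 6.50 RPKM. Its caecum and colon values were 1.17 (1.07 to 1.27) and 1.19 times (1.09 to 1.31) the ileum, the reverse of B2m. Tapbp shares positions with Zbtb22 on the same strand. Tap1 and Tap2 encode the subunits of the transporter that carries peptides into the endoplasmic reticulum. Tap1 had 168, 252 and 224 counts, or 0.611, 0.715 and 0.806 RPKM, and its colon value was 1.30 times the ileum (1.06 to 1.59). Tap2 was sparser, with 38, 28 and 40 counts, or 0.203, 0.115 and 0.208 RPKM, and was lowest in the caecum, by 1.77-fold (1.06 to 2.99) against the ileum. Nlrc5, the transactivator of class I genes, had 4, 8 and 10 counts, too few to compare.

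Peptides for class I come from the proteasome and are trimmed and loaded in the endoplasmic reticulum. All 11 features of the list of such genes were compared, and 1 of the 2 features named Psmb9, an interferon-inducible proteasome subunit beside Tap1, was higher by 2-fold or more in the caecum than the ileum, at 2.25 times (1.2 to 4.47). None of the others was 2-fold apart in any comparison. Calr, Pdia3 and Canx serve the folding of many glycoproteins, and their levels were 207 to 223 RPKM for Calr, 165 to 187 RPKM for Pdia3 and 74.7 to 86.8 RPKM for Canx. The immunoproteasome genes were far lower per length, with Psmb8 at 0.168, 0.210 and 0.310 RPKM and Psmb10 at 2.92, 2.85 and 3.28 RPKM. Both Psmb9 features share bases with Tap1 on the other strand, and their reads were not told apart here.

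Most class II genes had few counts in every segment. Of the 10 class II features, 4 reached 20 counts in a library, and the summed RPKM of all 10 was 1.69, 2.03 and 2.15, against 32.0, 23.9 and 26.9 for class I. The chains that present peptide had 24 counts at most. H2-Aa, the alpha chain of I-A, had 4, 9 and 2 counts, and H2-Ab1, its beta chain, had 24, 10 and 10. H2-Eb1 had 2, 4 and 4 counts, H2-Eb2 0, 1 and 1, and H2-Ea-ps, which is not made into protein in this strain, 0, 2 and 1. For H2-Ab1 the ileum stood at 3.12 times the caecum (1.44 to 7.31) and 2.47 times the colon (1.14 to 5.79), but it entered the comparison through the ileum alone. It shares 88 bases with H2-Aa on the other strand, and H2-Aa did not follow it.

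Among the genes that edit class II peptides, H2-DMa had the most counts of any class II feature. H2-DMa, the alpha chain of the DM molecule that exchanges peptides, had 72, 106 and 78 counts, or 0.882, 1.0 and 0.930 RPKM, with intervals that held 1 in every comparison. H2-DMb2, a beta chain of DM, had 10, 32 and 27 counts and its caecum and colon values were 2.46 (1.18 to 5.61) and 2.62 times (1.23 to 6.08) the ileum. From the first columns alone, caecum over ileum fell short of 2-fold, at 0.96 in log2. Its near copy H2-DMb1 had 8, 18 and 15 counts in the same order, and 36.3% of the windows of H2-DMb2 matched another gene with up to 2 mismatches. H2-Oa, a chain of the DO molecule that restrains DM, had 14, 24 and 32 counts and its colon value was 2.22 times the ileum (1.15 to 4.51). H2-Ob, its partner chain, had 0 counts in all 3 libraries.

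Cd74, the invariant chain that guides class II molecules, had 18, 34 and 36 counts, or 0.262, 0.369 and 0.496 RPKM. Its caecum and colon values were 1.45 (0.797 to 2.73) and 1.94 times (1.08 to 3.64) the ileum. Ciita, the transactivator of class II genes, had 7, 22 and 26 counts and its caecum and colon values were 2.42 (0.997 to 6.70) and 3.61 times (1.53 to 9.85) the ileum. A second feature named Ciita, which lies within the first, had 2 counts in each library. Cd74, Ciita, H2-DMb2 and H2-Oa had their lowest counts in the ileum, but all 4 passed the minimum of 20 counts only through the other segments. The caecum-over-ileum intervals of Cd74, Ciita and H2-Oa (0.655 to 2.76) held 1. The factors that act with Ciita on the X and Y boxes were well above these counts. The RFX subunits Rfx5, Rfxap and Rfxank were at 3.30 to 13.7 RPKM and the NF-Y subunits Nfya, Nfyb and Nfyc at 16.9 to 26.2 RPKM, and all 10 features of the list of class II processing and transcription genes stayed within 2-fold in every comparison.

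Markers of cells that make class II molecules were measured beside these genes. All 13 macrophage markers were detected, with summed RPKM of 26.8, 31.2 and 30.0. Csf1r, the receptor of macrophage growth factor, had 1062, 1428 and 1125 counts, or 4.05, 4.24 and 4.24 RPKM. Its caecum over ileum, at 1.03 (0.954 to 1.12), was within counting error. Of the 13, none was 2-fold apart between the ileum and either other segment, and 1, Lyz2, was lower in the caecum than the colon, with 226, 166 and 363 counts. The 5 general leukocyte markers summed to 7.92, 11.5 and 10.3 RPKM. Markers of dendritic and B cells summed to 2.27, 2.74 and 2.33 RPKM. Most of that sum was Zbtb46, a factor of dendritic cells and endothelium, with 665, 1256 and 762 counts, and Cd79b had 42, 30 and 32. The dendritic markers Itgax, Flt3 and Xcr1 were at or near 0, with 0, 2 and 0 counts, 4, 3 and 1 counts, and 0, 6 and 2 counts. Cd3e of T cells was at 0 counts in all 3. Macrophage and leukocyte sums were lowest in the ileum, as were the sums of class II and of its pathway. Single genes were not alike. Of the 13 macrophage markers, 5 were lower in the caecum than the ileum and 4 were lower in the colon than the ileum. H2-DMa gave 0.882, 1.0 and 0.930 RPKM of the class II sum and did not differ beyond counting error, and H2-Ab1 was highest in the ileum. The part of these cells in the class II values was not tested.

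Markers of other tissue layers were measured beside the Q genes and H2-T3. The 9 general epithelial markers summed to 210.5, 212.4 and 245.8 RPKM, and their median log2 fold was 0.03 for caecum over ileum and 0.31 for colon over ileum. Among them Cdh17, an intestinal cadherin, had 2398, 1535 and 1148 counts, and its ileum value was 2.03 (1.91 to 2.17) and 2.15 times (2.0 to 2.31) those of caecum and colon. Cdh17 thus had the order of the Q genes, while Krt19, a keratin, had 2068, 4308 and 4603 counts in the opposite order.

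Of 7 enterocyte markers, 3 reached 20 counts in a library and were not alike. Apob, an apolipoprotein of enterocytes and liver, had 3414, 3062 and 38 counts, the order of the Q genes with a steeper step to the colon. Fabp2, a fatty acid carrier of enterocytes, had 104, 4 and 19 counts and was mostly counted in the ileum, as was H2-T3. Apoa1 had 164, 624 and 152 counts and was highest in the caecum. Of 4 smooth muscle markers, 3 (Actg2, Myh11 and Cnn1) were lower by 2-fold or more in both other segments than in the ileum, whereas Des had 1727, 3102 and 1568 counts and was highest in the caecum. Their sum was 594, 203 and 261 RPKM, of which Actg2 made up 432, 140 and 198. The part of any of these cell types in the levels of H2-T3 and the Q genes was not tested.

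Genes that carry interferon and NF-kB signals, which raise class I genes in other settings, were present, and most stayed within 2-fold. The list holds receptors, kinases and transcription factors but no interferon, so the signals themselves were not measured. The 14 genes of interferon and NF-kB signalling were all compared, and 1 of them, Irf8, was 2-fold or more apart. Irf8, an interferon regulatory factor of myeloid cells, had an ileum value 2.43 times the caecum (2.10 to 2.82) and 1.78 times the colon (1.55 to 2.06). Irf1, with 1114, 963 and 748 counts, stayed within 2-fold and was also highest in the ileum. Of the 14 genes, 7 were higher and 7 lower in the caecum than the ileum. In the colon, 6 were higher and 8 lower than in the ileum. The part of these genes in the class I levels was not tested. The median log2 fold of the 14 genes was 0.01 between caecum and ileum, -0.04 between caecum and colon, and -0.02 between colon and ileum, the first over the second. Of 12 interferon-induced genes, 8 reached 20 counts in a library, and 2 of them were 2-fold apart in a comparison. Rsad2, with 82, 66 and 139 counts, was so between caecum and colon, and Irgm1, with 914, 1652 and 1942 counts, between colon and ileum. Isg15, Ifit1, Ifit3 and Mx1 stayed at 18 counts or fewer in every library.

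**Figure D4:**
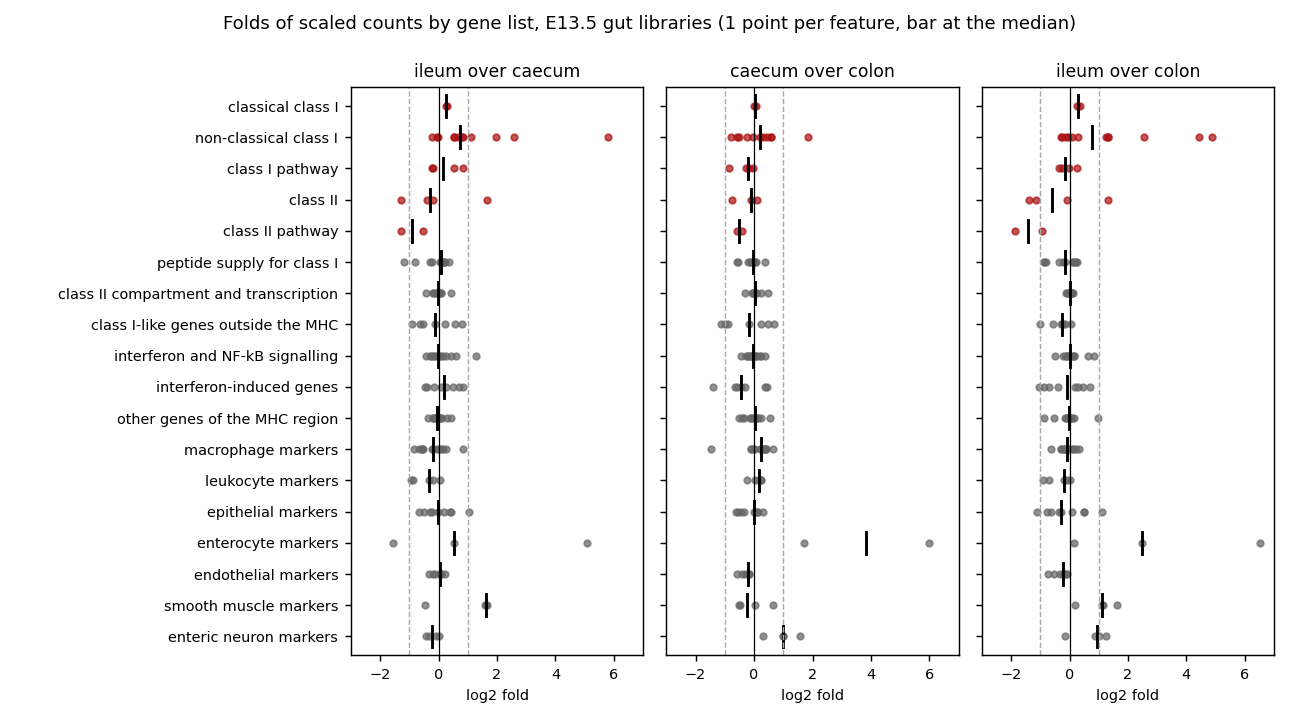
Log2 folds of scaled counts for each feature that reached 20 counts in either library, by list, with member classes in red, other lists in grey, a bar at each median and dashed lines at 2-fold. Non-classical class I features spread toward the ileum, as do 3 of 4 smooth muscle markers, while genes of interferon signalling and other genes of the MHC region lie around 0.

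Genes that share the location but not the role of the MHC differed little. H2-Ke2, now named Pfdn6, a prefoldin subunit, had 2130, 2570 and 1948 counts, and H2-Ke6, a dehydrogenase of the short-chain family, had 1032, 1378 and 1208. Neither differed by more than 1.14-fold in any comparison. H2-Ke6 shared 61.6% of its windows letter for letter with Gm20427. Of 16 other genes listed from the region, 15 were found in the table, and all 15, such as Brd2, Ring1 and Daxx, stayed within 2-fold in every comparison. Class I-like genes outside the MHC were also measured, and Cd1d1, which presents lipids, had 11, 17.2 and 12.4 RPKM, above every class I heavy chain in the same library. Of the 7 such genes compared, Hfe (66, 58 and 100 counts) and Mill2 (32, 24 and 38 counts) were lower by 2-fold or more in the caecum than the colon, and none was 2-fold apart in the other comparisons.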

How the data were processed

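Polyadenylated RNA of 3 tissues was sequenced as paired reads of 100 bases, per the labels' protocols. Bowtie 0.12.7 and DESeq are listed, with mm9 as the build, per the submitters' processing notes, which give no roles. The deposited table gives expected counts, not whole in places, and RPKM, which the authors scaled by length and depth, per the file headers. The counting program, annotation release, use of strand and treatment of reads that fit several genes are not given in the sources used here. The 2 columns per tissue, headed rep.1 and rep.2, belong to 1 sample, and what they are is not given. They differed by less than counting error over all features, so they were averaged and rounded.

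Libraries were scaled by TMM over the whole table (edgeR 4.0.16, R 4.3.3). Intervals of folds are from the binomial share of 1 library in the sum of both, by the exact Clopper-Pearson method (scipy 1.17.1), and cover counting error only. A count of 0 was set to a floor of 3 counts. Folds and intervals were also computed on simulated counts that held counting error only and were scaled by total counts. That run could not test the TMM scaling or any spread beyond counting error. Coordinates of members are those of the table in mm9, counted from 1. Current names and transcripts are from GENCODE vM21, matched by identifier, and promoters from RefSeq on GRCm38.p6. Windows were taken over all transcripts of a gene. Every member with at least 20 counts in a library was named. The members and the 15 context lists were chosen with earlier results of these data known. No per-sample column of the table was left unused. Alternatives were DESeq2 size factors (DESeq2 1.42.0), total counts, other count minimums, RPKM ratios, single columns, and leaving out overlapping or near-identical members.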

Additional observations from a re-analysis of the deposited data

How the results depend on the processing

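No paired analysis was possible because each segment has 1 library. Under DESeq2 size factors, total-count scaling and ratios of RPKM, the numbers of members 2-fold or more apart were the same as with TMM. All 501 values of single members under the alternatives stayed within their main intervals. This could hardly fail, because a count minimum leaves a fold unchanged and each single column is part of the mean. With a minimum of 100 counts, 0 members were higher and 3 lower for caecum over ileum, 0 higher for caecum over colon, and 0 higher and 4 lower for colon over ileum. Asking for an interval wholly beyond 2-fold gave 0 higher and 3 lower for caecum over ileum, 0 higher for caecum over colon, and 0 higher and 3 lower for colon over ileum, the 3 being H2-Q1, H2-Q2 and H2-T3. With no minimum, 2 members were higher and 1 lower for caecum over colon. For caecum over ileum, 1 member was higher without members that overlap another feature, 1 from the first columns and 1 without near-identical members. The second columns put 1 member, H2-Oa, 2-fold lower for caecum over colon, and they moved H2-Q7 in the caecum and H2-Ab1 in the colon to under 2-fold from the ileum and H2-Q10 in the caecum to more than 2-fold below it. The call that the first columns lost was that of H2-DMb2. Without members that share at least 20% of windows with another gene within 2 mismatches, an alternative chosen after seeing the data, 4 were lower for colon over ileum. Depth limits what can be compared for the 21 members under 20 counts.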

Other observations

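The table holds 4 features whose identifiers now carry an H2 name but which it lists under other names, so they are not among the members. One of them, C920025E04Rik, now named H2-T-ps, had 76 counts in the ileum, 73 in the caecum and 46 in the colon, or 0.847, 0.636 and 0.509 RPKM, in the same order as the Q genes. The others, Gm6571 (now H2-Q3), Gm9566 (now H2-Pb) and Gm4256 (now H2-M10.5-ps1), had 2 counts or fewer in each library.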
